A study of Mus musculus with 24 samples.

Results

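The change between Atxn2 Knock-In and wild type (WT) mice was compared between brain and liver. For each probe set, the mean of the changes in cerebellum and brainstem was taken, and the change in liver was subtracted from it. A value below 0 therefore means that the transcript went up more, or down less, in the liver of the Knock-In mice than in their brain. All 24 of the 24 arrays entered this comparison, in 6 groups of 4, and all 45037 probe sets that are not controls were tested. Of these, 28898 were assigned to 1 gene, covering 17097 genes.

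The Knock-In mice, named CAG42 below, carry 42 CAG units in the first exon of both copies of the endogenous Atxn2 gene, which is driven by its own promoter, and the WT mice came from the same colony and were of the same age, 18 months. The line was made in embryonic stem cells of another mouse strain and backcrossed to C57BL/6 over several generations. The study states that its experiments used littermates from matings of heterozygous mice. The CAG42 mice may still carry DNA of the donor strain around Atxn2 that the WT mice lack. No source used here gives their sex. No treatment is named for any group, and RNA was measured in bulk tissue, in which fewer cells of a type and less RNA per cell cannot be told apart.

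Ataxin-2, the product of Atxn2, is a cytoplasmic protein that binds poly(A)-binding protein and takes part in stress granules, RNA translation and decay. Expansion of its polyglutamine stretch causes spinocerebellar ataxia type 2, in which Purkinje cells of the cerebellum and neurons of the brainstem are lost. Liver also expresses ataxin-2, and mice without it are known for obesity and fat in the liver. The comparison asks which transcripts respond to the expansion in one organ and not in the other.

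A difference between organs can only be read as a difference in response where the transcript is present in both. A mean log2 intensity of at least 6 over the arrays of an organ was taken as high enough, with the brain level as the mean of the cerebellum and brainstem means. By this rule 9204 probe sets (20.4%) were high enough in both organs, 7150 (15.9%) in brain only, 2238 (4.97%) in liver only and 26445 (58.7%) in neither. Markers of cells that the other organ lacks show what the low end of the scale holds. Of 13 hepatocyte markers, leaving out Ttr, which choroid plexus also makes, 0 reached 6 in brain, with a highest level of 5.44 for Tdo2 and a median of 3.16. Of 13 neuron markers, 1 reached 6 in liver, Syt1 at 7.28, and the median was 4.26. The tissues carried their own defining markers, with median levels of 12.9 for the hepatocyte list in liver, 11.3 and 11.7 for the neuron list in cerebellum and brainstem, and 12.3 for the Purkinje cell list in cerebellum.

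The arrays of brain were more alike than those of liver. Between the 4 arrays of a group the median standard deviation came to 0.13 for cerebellum, 0.13 for brainstem and 0.20 for liver, and in the probe sets high enough in both organs it was 0.096, 0.10 and 0.22. Within groups, arrays correlated with r of at least 0.992 in brain and 0.986 in the liver of CAG42 mice. Liver WT replicate 1 stood apart, with r down to 0.954 within its group and an upper quartile of 6.38 where the other 7 liver arrays had 5.87 to 6.13. Where leaving it out moved a result most, the value without it is given beside that result.

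Across all probe sets, 5 of 45037 (0.0111%) differed between brain and liver at an adjusted p under 0.05 in the linear model of limma. The change was higher in brain for 1 of them (0.00222%) and lower in brain for 4 (0.00888%). At an unadjusted p under 0.05 there were 2399 (5.33%). At the median standard error of 0.15, a difference had to reach 0.91 on the log2 scale, 1.88-fold, to pass, and of the 73 probe sets with a difference over 1 in size, 4 passed. Of the 5 probe sets, 2 were high enough in both organs (0.0217% of that class), both of them with a WT liver mean under 6, 1 in brain only (0.014%) and 2 in neither (0.00756%), while none (0.0%) of the 2238 that were high enough in liver only passed, among which 188 (8.40%) had an unadjusted p under 0.05. Leaving out liver WT replicate 1 gave 452 probe sets (1.0%, 128 higher in brain, 324 lower), whereas giving each tissue its own estimate of spread gave 2 (0.00444%).

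**Figure D1:**
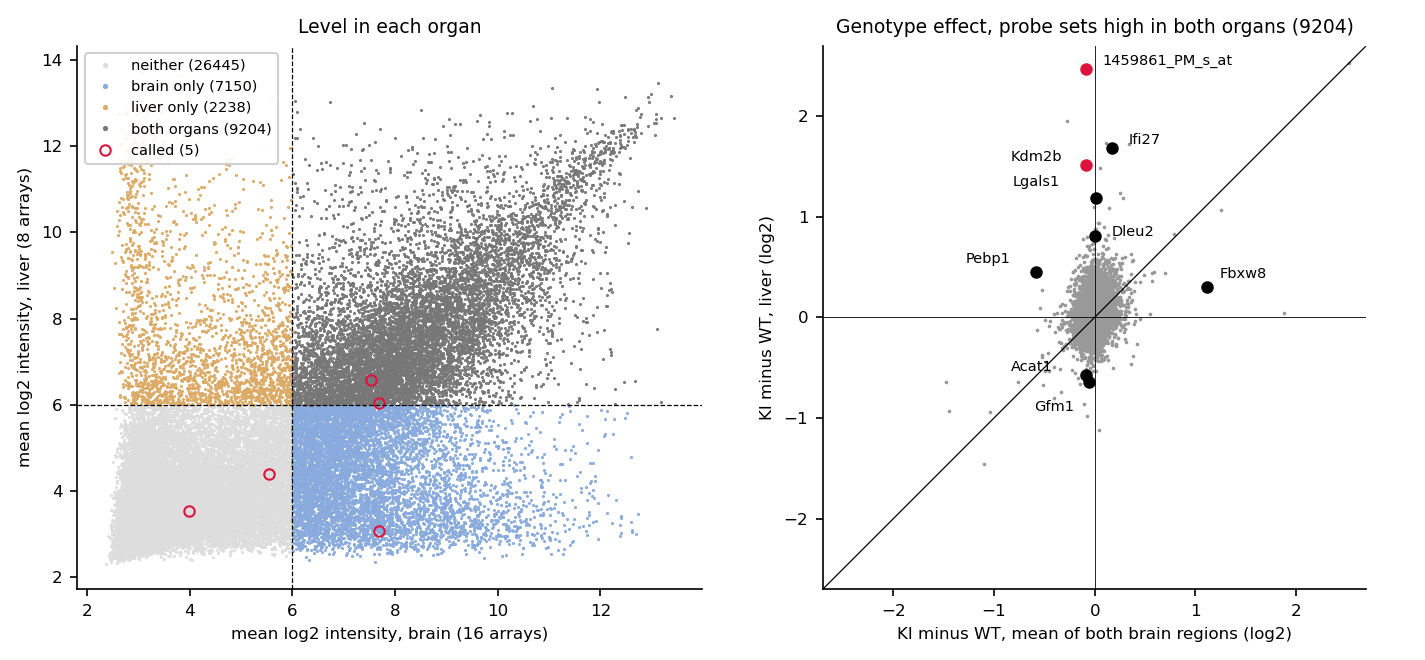
Left, mean log2 intensity of each of the 45037 probe sets in brain (16 arrays) and liver (8 arrays), with dashed lines at the level of 6 and red circles around the 5 probe sets that differed. Right, the CAG42 minus WT change (KI minus WT, log2) in brain and in liver for the 9204 probe sets high enough in both organs, with the line of equal change; named points in red passed the test, and the cloud is taller than it is wide, since the median size of the change was 0.10 in liver and 0.05 in brain.

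The named gene of lowest p was Kdm2b, which encodes a histone demethylase of the F-box family that binds CpG islands and recruits a Polycomb complex to them. Its probe set 1452198_PM_at read 6.37, 5.90, 5.60 and 5.41 (log2 intensity) in the 4 WT livers and 7.30, 7.42, 7.52 and 7.09 in the 4 CAG42 livers. Every CAG42 liver lay above every WT liver, which held for 2.76% of all probe sets in either direction. In cerebellum the WT arrays read 8.06, 7.91, 7.97 and 8.07 and the CAG42 arrays 7.89, 7.87, 7.94 and 7.74. In brainstem the WT arrays read 7.20, 7.01, 7.14 and 7.23 and the CAG42 arrays 7.01, 7.17, 7.15 and 7.13. The genotypes overlapped in both brain regions. Kdm2b thus rose 2.86-fold in liver (1.52 on the log2 scale, adjusted p = 2.04e-06 in limma), and the difference of brain minus liver was -1.60 (SE 0.17, 95% interval -1.95 to -1.26, adjusted p = 7.14e-05). The liver means were 5.82 ± 0.42 in WT and 7.33 ± 0.19 in CAG42 mice (SD, n = 4), so that in WT livers alone Kdm2b was below the limit of 6. The call held with each of the 24 arrays left out. It was lost with a spread for each tissue alone (adjusted p = 0.119), and 1452198_PM_at is the only probe set assigned to Kdm2b.

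Probe set 1459861_PM_s_at, which is assigned to no gene here, had the same shape. It read 5.56, 5.11, 4.21 and 4.33 in the WT livers and 7.07, 7.62, 7.65 and 6.74 in the CAG42 livers, with no overlap. Its values in brain were between 7.04 and 8.29 in both genotypes, with changes of -0.09 in cerebellum and -0.08 in brainstem. The difference was -2.55 (SE 0.27, adjusted p = 7.14e-05), from a 5.53-fold rise in liver. It also held in 24 of 24 fits with 1 array left out and was lost with a spread for each tissue alone (adjusted p = 0.125). Its mean level in liver of 6.04 was just above the limit of 6, and in the WT livers alone (4.80 ± 0.64, n = 4) it was below.

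Both other unnamed probe sets fell in the brain of CAG42 mice, and by their mean levels they were high enough in neither organ. Probe set 1447526_PM_at read 7.29, 7.55, 6.94 and 7.42 in WT and 5.49, 5.48, 5.53 and 5.87 in CAG42 cerebellum. In brainstem it read 5.54, 5.21, 5.36 and 5.68 in WT and 3.72, 3.94, 3.99 and 3.90 in CAG42 mice. The genotypes did not overlap in either region, which held for 3.94% of all probe sets in cerebellum and 3.7% in brainstem. In liver the mean was 4.61 ± 0.09 in WT and 4.15 ± 0.19 in CAG42 mice (SD, n = 4), also without overlap. The fall in brain was 1.63 on the log2 scale against a change of -0.46 in liver, and the difference of -1.17 (SE 0.16, adjusted p = 0.00210) was the one of the 5 that also passed with a spread for each tissue alone (adjusted p = 0.00492). The liver level of 4.38 was close to the median of the neuron markers there, and the part of this low level in the difference was not tested. The second probe set to pass with a spread for each tissue alone was 1445307_PM_at, also assigned to no gene and named after its values were seen, with changes of -1.79 in brain and -0.16 in liver (adjusted p = 0.00740 there, 0.138 with a common spread).

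Probe set 1441721_PM_at had its signal mainly in brainstem. It read 5.91, 5.80, 5.41 and 5.70 in WT brainstem and 3.75, 3.41, 3.34 and 3.33 in CAG42 brainstem. In cerebellum and liver all 16 arrays were at 4.02 or below, in both genotypes. The change was -2.25 in brainstem, -0.63 in cerebellum and -0.27 in liver, and the difference of brain minus liver was -1.17 (SE 0.18, adjusted p = 0.0130). The genotypes overlapped in liver and did not in either brain region, although in cerebellum the WT arrays were no higher than 3.99.

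The single transcript whose change was higher in brain was Bcl11a, a zinc finger repressor of transcription. In cerebellum its probe set 1419406_PM_a_at read 7.14, 7.11, 7.17 and 7.22 in WT and 7.55, 7.48, 7.61 and 7.57 in CAG42 mice, a change of 0.39 without overlap (adjusted p = 0.0763). Its value was 0.02 in brainstem and 0.21 in the mean of both regions. In liver it read 3.19, 3.17, 3.39 and 3.2 in WT and 3.01, 2.91, 2.80 and 2.81 in CAG42 mice, also without overlap, and the value there was -0.36 (adjusted p = 0.0708). The difference was 0.56 (SE 0.09, adjusted p = 0.0409). The liver level of 3.06 is within the range of the hepatocyte markers in brain and of the neuron markers in liver, so that Bcl11a was not high enough to compare. The call remained in 6 of 24 fits with 1 array left out, and its 3 other probe sets gave differences of 0.06, -0.21 and -0.14.

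**Figure D2:**
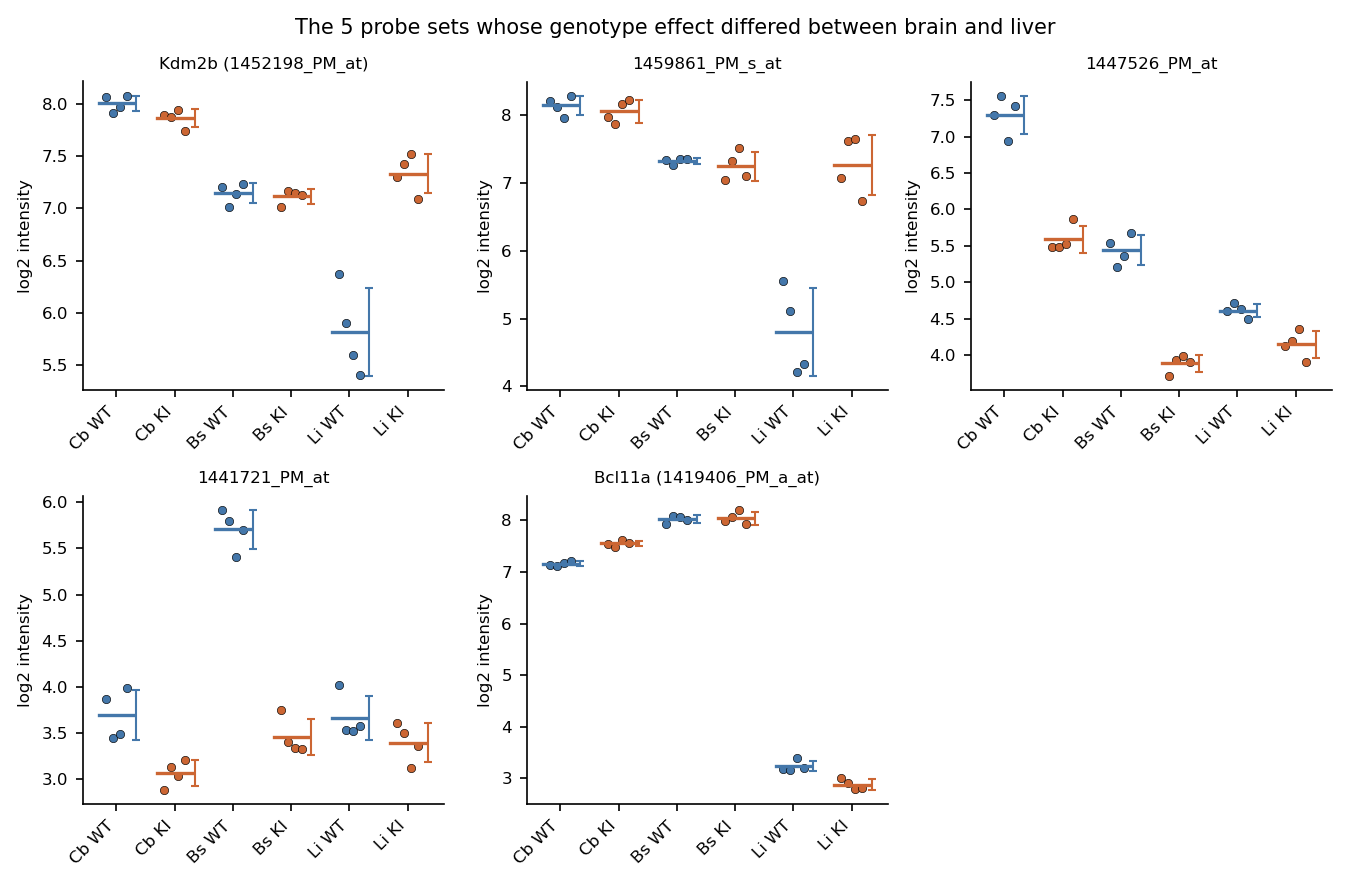
Log2 intensity of the 5 probe sets that differed between brain and liver, in cerebellum (Cb), brainstem (Bs) and liver (Li) of WT (blue) and CAG42 (KI, orange) mice; points are single arrays, lines are group means and bars are SD (n = 4). Kdm2b and 1459861_PM_s_at separate the genotypes in liver, 1447526_PM_at in all 3 tissues, 1441721_PM_at mainly in brainstem, and Bcl11a in cerebellum and in liver, where its level was near 3.

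Against liver, each brain region alone gave 4 probe sets (0.00888% each). Both comparisons use the same liver arrays, so they are set side by side only. For cerebellum minus liver they were Kdm2b (-1.66), 1459861_PM_s_at (-2.55), 1447526_PM_at (-1.25) and Bcl11a (0.75). For brainstem minus liver they were Kdm2b (-1.54), 1459861_PM_s_at (-2.55), 1447526_PM_at (-1.10) and 1441721_PM_at (-1.98).

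The changes in brain and in liver were also tested alone. In liver 66 probe sets were called (0.147%), 42 higher (0.0933%) and 24 lower (0.0533%) in CAG42 mice, and in the mean of both brain regions 37 (0.0822%), 9 higher (0.02%) and 28 lower (0.0622%). The order of these counts turned with the estimate of spread: with a spread for each tissue alone, limma called 0 in liver (1512 at an unadjusted p under 0.05) and 56 in brain. Without liver WT replicate 1 it called 2878 in liver. In the 66 liver probe sets the median change in brain was 0.00, with 0.01 for the 42 higher and -0.06 for the 24 lower in liver. Of the 66, 47 changed with the same sign in brain and liver, and 29 were high enough in both organs. In the 37 brain probe sets the median change in liver was -0.08. Of the 37, 29 changed with the same sign in both organs, and 13 had an unadjusted p under 0.05 in liver. Over all 45037 probe sets the median change was -0.01 in brain and -0.01 in liver. The signs were the same in 25434 of them, and 3876 had an unadjusted p under 0.05 in liver. Of the 37, 5 were high enough in both organs. The sets of 66 and 37 were chosen by the size of the change in their own organ, so that organ's values are a description. Over the 9204 probe sets high enough in both organs, the changes in brain and liver, which share no array, correlated with r = 0.26 (rho = 0.18) and had the same sign in 5167. Whether the 3 tissues were normalized together, and whether the same mice gave them, is stated in no source used here.

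Next to the calls stood transcripts of both organs that did not pass over all 45037 probe sets. Gfm1, the mitochondrial translation elongation factor G1, read 9.77, 9.53, 9.70 and 9.49 in WT and 8.97, 9.04, 8.85 and 9.06 in CAG42 liver, and between 7.79 and 8.14 in all 16 brain arrays. The livers did not overlap, and the difference was 0.58 (SE 0.10, adjusted p = 0.0512). A second probe set of Gfm1 gave 0.23 (adjusted p = 0.989), at a liver level of 5.10.

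Lgals1 encodes galectin-1, a lectin that binds beta-galactosides. It read 7.35, 7.32, 6.65 and 7.02 in WT livers and 8.62, 8.18, 8.45 and 7.83 in CAG42 livers, 2.27-fold higher, with changes of 0.11 in cerebellum and -0.09 in brainstem. The difference was -1.17 (SE 0.22, adjusted p = 0.0725). Probe set 1455439_PM_a_at, which the platform's table leaves unnamed and the study assigns to Lgals1, gave -1.11 (adjusted p = 0.105). Dleu2, a long noncoding RNA gene that hosts microRNAs, rose 1.75-fold in liver (adjusted p = 0.00314), where its genotypes did not overlap, against a value of 0.01 in brain, with a difference of -0.80 (SE 0.15, adjusted p = 0.0725). Its second probe set gave -0.87 (adjusted p = 0.195) and the third, at a level of 3.43 in brain and 3.37 in liver, -0.27.

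Pebp1, which encodes the Raf kinase inhibitor protein, was bright in both organs, with changes of opposite sign. In cerebellum it read 12.08, 11.66, 11.81 and 12.12 in WT and 11.26, 11.22, 11.14 and 11.66 in CAG42 mice. In brainstem it read 11.99, 11.86, 11.85 and 12.08 against 11.23, 11.32, 11.38 and 11.62. In liver it read 10.83, 11.03, 11.22 and 10.94 against 11.57, 11.71, 11.70 and 10.86. The genotypes were apart in brainstem, touched in cerebellum and overlapped in liver, where CAG42 replicate 4 was low and the other 3 were high. The fall of 0.58 in brain passed (adjusted p = 0.0417), the value of 0.45 in liver did not (adjusted p = 0.368), and the difference of -1.03 (SE 0.19) had an adjusted p of 0.0725. A second Pebp1 probe set, at a brain level of 4.34, gave 0.31.

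**Figure D3:**
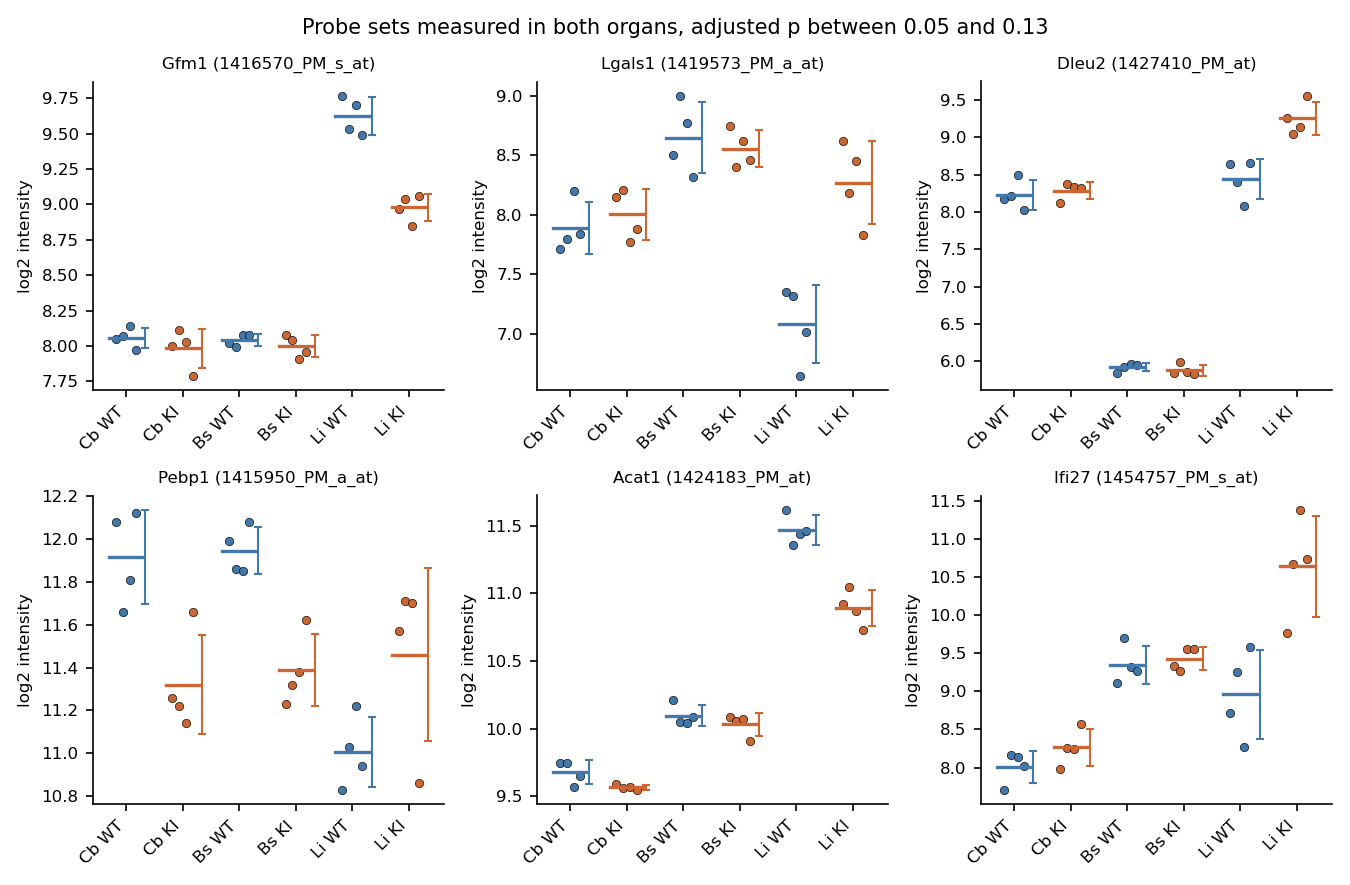
Log2 intensity of 6 probe sets high enough in both organs whose adjusted p for the difference lay between 0.05 and 0.13, with tissues, colours, means and SD as in the plot of the 5 called probe sets. Gfm1 and Acat1 were lower and Lgals1, Dleu2 and Ifi27 higher in every CAG42 liver, with the genotypes close together in brain, while Pebp1 was lower in CAG42 brainstem and cerebellum and higher in 3 of 4 CAG42 livers.

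When the test was limited to the 9204 probe sets high enough in both organs, 16 passed (0.174%), 5 higher and 11 lower in brain, with fewer probe sets to correct for. The limit was set on the mean of both genotypes, and 14 of the 16 had both liver group means at 6 or above, the exceptions being Kdm2b and 1459861_PM_s_at. They included Kdm2b, 1459861_PM_s_at, Gfm1 (adjusted p = 0.00973), Lgals1, Dleu2 and Acat1 (0.0227 each) and Pebp1 (0.0228). Also among them were Immt, which organizes the cristae of mitochondria (0.52), Agrn, which encodes the basement membrane protein agrin (-0.54), and Ptpa, an activator of protein phosphatase 2A (-0.42). These 3 were named after their values were seen. With a spread for each tissue alone, none of the 16 had an adjusted p under 0.05, the lowest being the 0.119 of Kdm2b.

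Other genes of low p were transcripts of liver with little signal in brain, for which the difference is mostly the change in liver. Sult1e1, an estrogen sulfotransferase, read 9.61, 8.77, 9.25 and 7.65 in WT and 6.73, 6.89, 7.77 and 6.56 in CAG42 livers, where the groups overlapped, with a brain level of 2.75 and a difference of 1.81 (adjusted p = 0.0725). Hsd3b3, a steroid dehydrogenase, had a brain level of 2.64 and a difference of -0.62 (adjusted p = 0.0725), and its second probe set gave -0.63. Nlrp12, an intracellular receptor of the innate immune system, had a brain level of 2.91, a liver level of 5.62 and a difference of -1.95 (adjusted p = 0.0705). Its WT livers spread from 3.31 to 5.59, with liver WT replicate 1 the lowest. Without that array the difference was -1.50 and passed (adjusted p = 0.00258 in limma). Gldc, the decarboxylase of the glycine cleavage system, was at 6.71 in cerebellum but at 4.36 in brainstem, and its difference was 0.89 (adjusted p = 0.0725).

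Genes that the study names were chosen on these arrays, so their differences are no independent evidence. Acat1, the mitochondrial acetoacetyl-CoA thiolase of ketone body metabolism, fell in liver by all 3 of its probe sets, every CAG42 liver lying below every WT liver, with differences of 0.49, 0.42 and 0.51 (adjusted p of 0.0860, 0.126 and 0.143). For 1424183_PM_at the WT livers read 11.62, 11.36, 11.44 and 11.46 and the CAG42 livers 10.92, 11.05, 10.87 and 10.73, against 9.55 to 10.21 in all brain arrays. Ifi27, an interferon-inducible protein that the study calls Ifi27l1, rose 3.21-fold and 3.27-fold in liver by its 2 probe sets, with differences of -1.51 and -1.54 (adjusted p = 0.123 and 0.143).

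Fbxw8, a substrate receptor of an SCF ubiquitin ligase, rose by 1.09 and 1.11 in brain by its 2 brighter probe sets (adjusted p = 0.00148 and 0.00164), against values of 0.19 and 0.31 in liver (adjusted p = 0.893 and 0.785). The differences were 0.90 (SE 0.27) and 0.81 (SE 0.28), with adjusted p of 0.596 and 0.755. For 1426944_PM_at the CAG42 cerebella read 8.15 to 8.38 and the WT cerebella 6.54 to 7.48. The WT livers read from 4.62 to 6.14, with replicate 1 the highest, and without that array the difference was 0.60. Adam1a, a sperm metalloprotease gene, fell by 0.73 in brain, against a value of -0.50 in liver (adjusted p = 0.293; difference -0.23, SE 0.20, adjusted p = 0.993), at a liver level of 3.89. Probe set 1443378_PM_s_at, unnamed in the platform's table and assigned to Adam1a by the study, fell by 0.69 in brain (adjusted p = 7.90e-05) against a value of -0.07 in liver (adjusted p = 0.942). Its difference was -0.62 (SE 0.14, adjusted p = 0.188), and -0.74 (adjusted p = 0.00737) without liver WT replicate 1.

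The transcript of Atxn2 itself and of its partner Pabpc1 gave no difference that passed. Of the 5 Atxn2 probe sets, 4 were high enough in both organs, with differences of -0.08, -0.05, 0.00 and 0.13 and standard errors of 0.14 to 0.25. The dimmest, 1438144_PM_x_at, gave 0.33 (SE 0.13, adjusted p = 0.800). The signs of the 4 turned in other settings. Pabpc1, the cytoplasmic poly(A)-binding protein, had by 1418883_PM_a_at a value of 0.10 in both organs (adjusted p = 0.841 in brain and 0.759 in liver), with a difference of 0.00 (SE 0.08).

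In 24 gene lists, chosen with earlier results known, 0 of 419 measured genes passed, with 1 probe set per gene. The 13 marker lists also held no gene that passed. Beside them, 2 of 17097 genes passed (0.0117%), 1037 (6.07%) had an unadjusted p under 0.05 and the median difference was -0.01. Interferon-stimulated genes, which block the spread of viruses, stood lowest of the lists. Of 26 measured, 24 had a difference below 0, 13 had an unadjusted p under 0.05, and the median difference was -0.55, from a median change of 0.57 in liver and 0.09 in brain. Only 5 were high enough in both organs (Ifi27, Ifit3, Stat2, Irf9 and Xaf1), 13 in liver only and 8 in neither. Their mean, set to 0 at the WT mean, was between 0.20 and 1.21 in the CAG42 livers and between -0.63 and 0.41 in the WT livers, so that the groups overlapped. The list includes Oas1g, Oas3, Oasl1 and Oasl2, which lie on chromosome 5, as does Atxn2. It also holds Oas1b and Oas2 of the same family, whose positions are not given here.

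Oas1g, a gene of the 2′-5′ oligoadenylate synthetase family, read 5.64, 5.99, 5.17 and 6.18 in WT livers and 6.81, 7.95, 9.82 and 8.64 in CAG42 livers. The genotypes did not overlap, the means were 5.89-fold apart, and the CAG42 livers spread more widely than the WT livers. The difference was -2.32 (SE 0.50, adjusted p = 0.138), at a brain level of 4.82. Usp18, which removes ISG15 from proteins and dampens interferon signalling, rose 4.86-fold in liver, with a difference of -2.04 (SE 0.50, adjusted p = 0.331) at a brain level of 4.07. Ifit3, an interferon-induced protein that was high enough in both organs (7.47 and 6.98), had a difference of -0.91 (SE 0.37, adjusted p = 0.837) and Ifit1, which binds foreign RNA, -1.45 (SE 0.50, adjusted p = 0.747).

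The promoters of Oas1g, Ifit1 and Ifit3 are shown because these genes were higher on average in CAG42 liver and carry the core of the interferon-stimulated response element, written here as GAAA, any 2 bases and GAAA again, searched on both strands (TTTC, any 2 bases and TTTC on the other). Matches may overlap, as they do in Oas1g. Of 16 measured list genes with a promoter in the table, 9 hold it (56.3%), against 1079 of 27025 genes (3.99%). Capitals mark the matches, in 250 bases before to 50 after the start site, from RefSeq on GRCm38.p6, at chr5:120887564-120887863 (minus strand), chr19:34640639-34640938 (plus) and chr19:34583279-34583578 (plus). A match is a description of these letters and not a measured site.
Oas1g: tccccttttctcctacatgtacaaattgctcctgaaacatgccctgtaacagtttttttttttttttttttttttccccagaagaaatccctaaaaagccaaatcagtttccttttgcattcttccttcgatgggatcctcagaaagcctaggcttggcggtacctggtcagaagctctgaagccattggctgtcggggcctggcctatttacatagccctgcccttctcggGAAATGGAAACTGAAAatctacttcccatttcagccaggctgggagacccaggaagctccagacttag
Ifit1: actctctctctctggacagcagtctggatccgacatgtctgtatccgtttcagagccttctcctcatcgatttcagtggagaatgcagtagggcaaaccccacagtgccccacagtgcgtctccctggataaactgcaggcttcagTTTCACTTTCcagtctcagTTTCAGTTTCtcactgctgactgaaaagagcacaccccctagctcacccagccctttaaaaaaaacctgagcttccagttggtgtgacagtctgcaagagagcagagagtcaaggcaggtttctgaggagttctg
Ifit3: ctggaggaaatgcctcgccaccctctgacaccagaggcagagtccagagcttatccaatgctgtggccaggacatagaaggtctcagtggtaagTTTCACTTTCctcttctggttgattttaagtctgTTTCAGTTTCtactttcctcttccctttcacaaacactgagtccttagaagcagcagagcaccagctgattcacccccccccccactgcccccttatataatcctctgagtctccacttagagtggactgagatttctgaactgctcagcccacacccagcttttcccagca

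Genes that break down ketone bodies and branched-chain amino acids stood at the other end. All 17 measured had a difference above 0, 6 had an unadjusted p under 0.05, and the median difference was 0.24, from -0.30 in liver and -0.03 in brain. Here 15 of the 17 were high enough in both organs. Besides Acat1, Mccc1, a carboxylase subunit of leucine breakdown, had a difference of 0.54 (SE 0.14, adjusted p = 0.400) and Acadsb, a dehydrogenase of short branched acyl-CoA, of 0.28 (SE 0.10, adjusted p = 0.744). Their mean, set to 0 at the WT mean, was between -0.39 and -0.19 in CAG42 livers and between -0.19 and 0.23 in WT livers. Without liver WT replicate 1, 16 of these 17 were above 0, and the same 24 interferon-stimulated genes were below 0.

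Most genes of fatty acid oxidation and of the respiratory chain also had a difference above 0, against 8066 of all 17097 genes. Of 18 genes of fatty acid oxidation, 12 had a difference above 0 with a median of 0.13, among them Etfdh, which passes electrons to ubiquinone (0.46, adjusted p = 0.596), Acadm (0.27) and Acads (0.36). Of 23 genes of the respiratory chain and ATP synthase, all high enough in both organs, 21 were above 0 with a median of 0.08, among them Uqcrfs1 of complex III (0.26), Ndufs1 (0.28) and Ndufv1 (0.24) of complex I. Without liver WT replicate 1, 11 of the 18 and 19 of the 23 were above 0. The 21 genes of the mitochondrial ribosome and translation had a median of 0.00, with 12 above and 9 below 0, and without liver WT replicate 1 a median of -0.04, with 9 above and 12 below. Among them were Gfm1 at 0.58, Gfm2 at 0.47 and Tufm at 0.26.

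Genes of liver metabolism mostly had low brain levels. In the list of bile acid synthesis and cytochrome P450, 16 of 19 were high enough in liver only. Cyp7a1, whose enzyme limits the rate at which bile acids are made, read 10.66, 10.50, 11.27 and 10.21 in WT and 11.82, 11.55, 11.55 and 11.46 in CAG42 livers, with a difference of -0.92 (SE 0.18, adjusted p = 0.0860). Cyp7b1, of the alternative pathway and high enough in both organs, had a difference of 0.45 (adjusted p = 0.698). Cyp2b9, a drug-metabolizing enzyme, had a difference of -3.89 with an SE of 1.36 (adjusted p = 0.772). Its WT livers read 3.61, 10.34, 3.25 and 11.15, with 2 low and 2 high, and the CAG42 livers 11.25, 11.25, 11.16 and 9.77. In glycine and pyrimidine breakdown, 9 of 10 were high enough in liver only, and the median difference was 0.21, with Dmgdh at 0.41 and Gnmt at 0.38.

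In lists tied to ataxin-2 no gene had an unadjusted p under 0.05 by its brightest probe set. The dimmest Atxn2 probe set, 1438144_PM_x_at, had an unadjusted p of 0.0184 in limma. Of 19 genes of stress granules and mRNA decay, 17 of them high enough in both organs, 17 had a difference below 0, with a median of -0.12 and a range of -0.24 to 0.05. The 9 measured genes of Atxn2 and poly(A)-binding proteins had a median of -0.08. Without liver WT replicate 1 the medians were -0.22, with 19 of 19 below 0, and -0.17, with 8 of 9 below 0. Among the 9204 probe sets high enough in both organs the median difference was itself -0.07, against 0.00 over all probe sets, and of their 657 (7.14%) with an unadjusted p under 0.05, 541 were lower in brain. Without liver WT replicate 1 that median was -0.15, with 98 higher and 2215 lower at an unadjusted p under 0.05. With quantile normalization within each tissue the median of the 9204 became -0.01, with 323 higher and 392 lower, and over all probe sets 12 were called, 7 of them higher in brain. The part of the scaling in the median of the stress granule list was not tested. The 24 proteasome genes, all high enough in both organs, had a median of 0.01, and the 21 cytosolic ribosomal proteins one of -0.04.

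**Figure D4:**
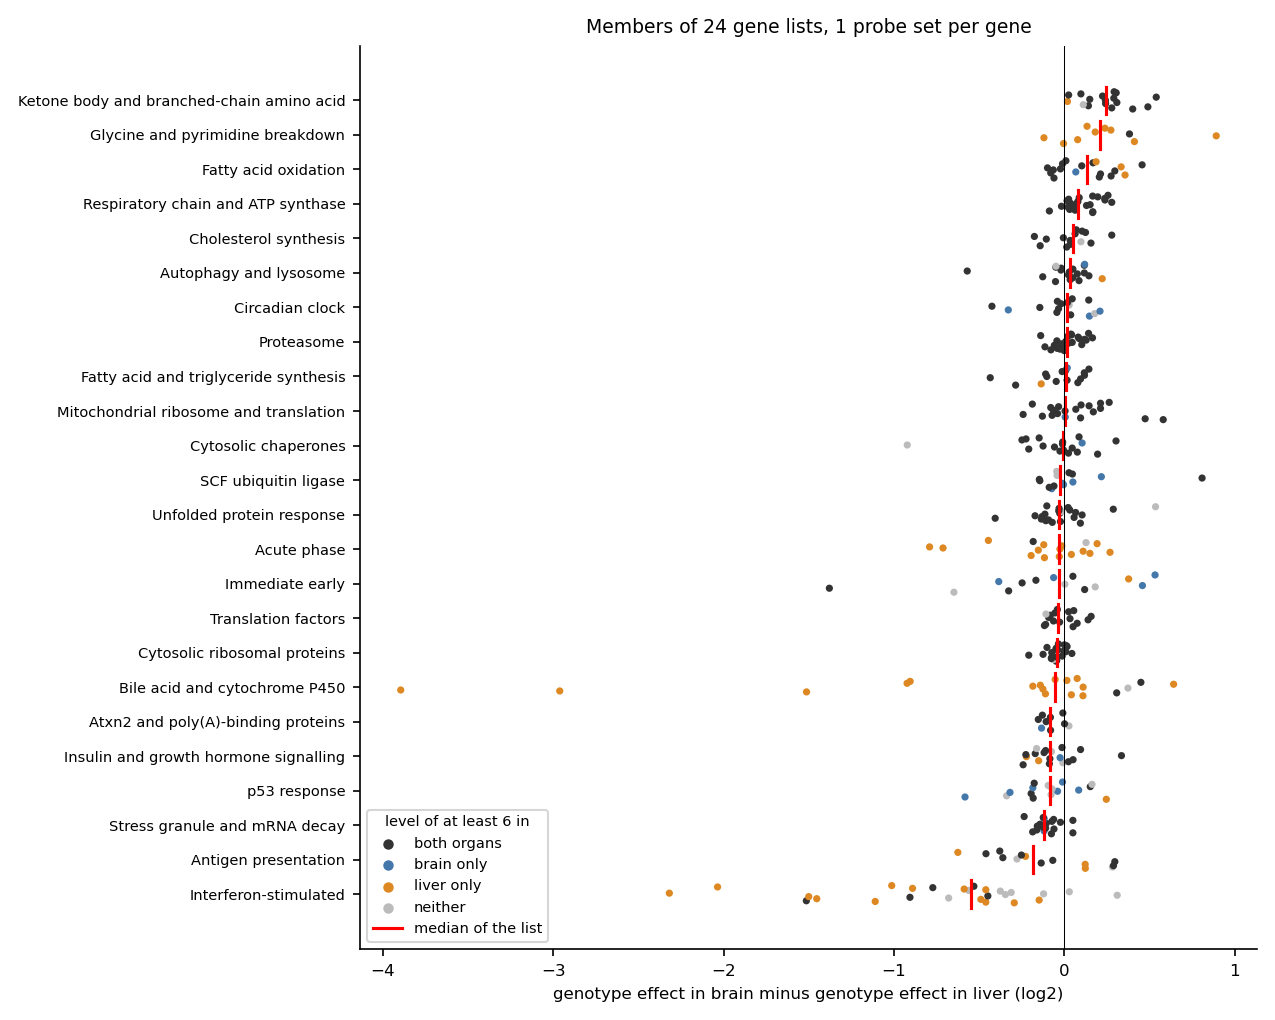
Difference of the CAG42 minus WT change, brain minus liver (log2), for the measured members of 24 gene lists (1 point per gene, coloured by the organs in which its level was at least 6; red line, median). Interferon-stimulated genes lie to the left with a median of -0.55, mostly at levels high enough in liver only or in neither organ, and genes of ketone bodies and branched-chain amino acids to the right with a median of 0.24 and mostly high enough in both.

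Among the marker lists, the choroid plexus markers stood out by their median, 0.47, with 7 of 8 above 0, from a median change of 0.45 in brain. None passed, and the WT cerebella alone spread from -1.08 to 0.74 in the mean of these markers. The erythrocyte markers had median values of 0.49 in brain and 0.23 in liver, and a median difference of 0.07. Their part in the results was not tested. The markers of hepatocytes (median difference -0.03), neurons (-0.02), microglia and macrophages (-0.01) and oligodendrocytes (0.14) had no member that passed.

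Kdm2b and Pebp1 lie on chromosome 5, as does Atxn2, in the order of measured genes 21 genes from it on one side and 49 on the other, an observation made after their values were seen. On the side of Pebp1, Fbxw8 lies 41 genes, Oas1g 15 and Adam1a 5 genes away. Within 100 measured genes on each side of Atxn2, 1 of 346 probe sets passed (Kdm2b) and 32 (9.25%) had an unadjusted p under 0.05, against 5.57% of the other 28552 named probe sets. In the same interval 10 probe sets (2.89%) were called in the mean of both brain regions and 4 (1.16%) in liver, against 4 (0.0140%) and 49 (0.172%) of the other named probe sets. The effect of the repeat and of donor DNA around it cannot be told apart for these genes, Oas1g, Oas3, Oasl1, Oasl2 and Adam1a included. Oas1b and Oas2 may be among them.

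Leaving out 1 array at a time gave 4 to 7 probe sets for each of the 16 brain arrays. For the liver arrays it gave 452 without WT replicate 1, 14 without WT replicate 2, 7 without WT replicate 3, 26 without WT replicate 4, and 10, 6, 7 and 15 without CAG42 replicates 1 to 4. In the fit without liver WT replicate 1, 200 of the 452 were high enough in both organs and 195 of those were lower in brain. The whole class of 9204 was shifted the same way there, with a median difference of -0.15. At an unadjusted p under 0.05, 2215 of the class were lower and 98 higher in brain. That fit included all 5 probe sets above and Gfm1 (adjusted p = 0.0141), Lgals1 (0.0105), Dleu2 (0.0104), Pebp1 (0.0244), Acat1 (0.0260), Ifi27 (0.0400) and Cyp7a1 (0.0241). It also held Cyp8b1, which sets the ratio of bile acids, with -1.44 in place of -0.90, and Rai1, a regulator of transcription, with -0.84 in place of -0.50, both named after their values were seen.

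**Figure D5:**
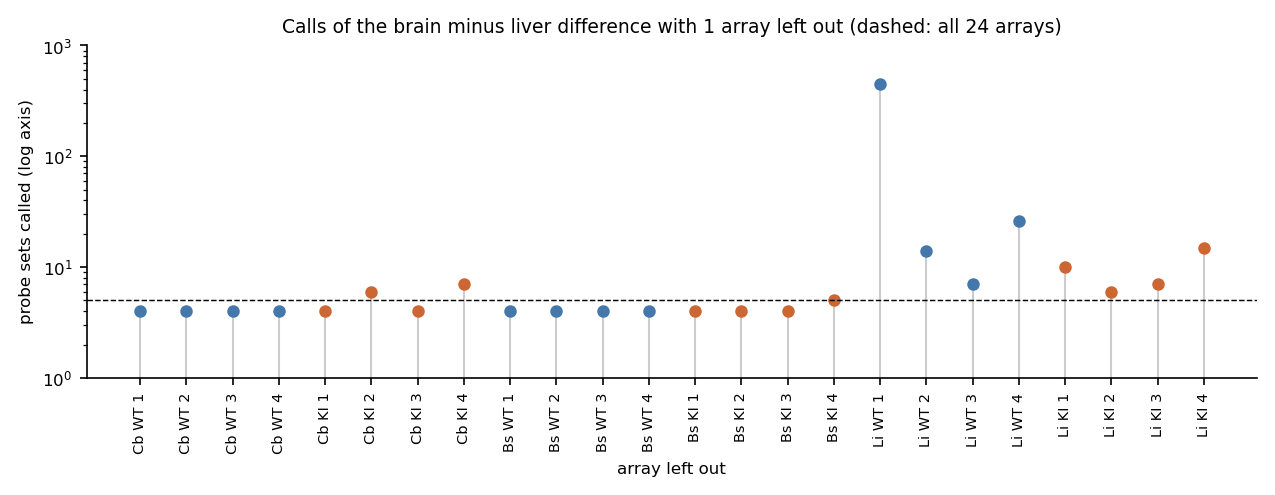
Number of probe sets with an adjusted p under 0.05 for the brain minus liver difference (log axis) when 1 of the 24 arrays is left out, ordered by tissue (Cb, cerebellum; Bs, brainstem; Li, liver), genotype (WT, blue; CAG42, KI, orange) and replicate. Leaving out a brain array gives 4 to 7, near the 5 with all arrays (dashed), and leaving out liver WT replicate 1 gives 452.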

How the data were processed

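Affymetrix mouse arrays, 24 in all, measured total RNA from the 3 tissues. The deposited values are log2 intensities per probe set, which the authors obtained with RMA in R 2.7.0 according to the submitters' notes; no source used here states whether tissues were normalized together. Probe set names are those of the PM-only array version. Arrays were grouped by the labels' tissue and genotype, and 0 columns belonged to other samples. Without the 104 control probe sets, 45037 were fitted with limma 3.58.1 in R 4.3.3, with 1 mean for each of the 6 groups and a common spread. Differences are CAG42 minus WT in log2, p-values were adjusted by Benjamini-Hochberg over all probe sets, and the threshold was 0.05. The study describes 4 animals per genotype at this age, and their number limits the precision. Fits were tested on simulated data with independent normal noise, in which no array stood apart and tissues were not correlated. That test therefore does not cover the effect of liver WT replicate 1.

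Genes came from the platform's annotation, updated through RefSeq, with 15588 probe sets without a gene and 551 with several. Of several probe sets of a gene, lists used the brightest. List genes absent under their own symbol were looked up by synonym. This matched Eif4a2 to Eif4b, and Srebf1 to Tom1l2, so that Tom1l2 stands for Srebf1 in fatty acid and triglyceride synthesis. Named were all calls, the lowest p-values up to 10 genes, calls of opposite sign in the organs, 7 genes of the study, and up to 3 genes of each list with the lowest p. The comparison, lists and rules were chosen with earlier results of these data known. Alternatives were the spread per tissue, weights per tissue or array, quantile normalization within tissue, level limits of 5, 6 and 7, a replicate block, trend and robust moderation, averaging the probe sets per gene, and leaving out arrays. The alternatives for the changes in brain alone and in liver alone, and those without liver WT replicate 1, per tissue spread and array weights for the gene lists, were added after seeing the data.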

Additional observations from a re-analysis of the deposited data

Results flagged for a closer look

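The difference between the changes in brain and liver passed its own test for Kdm2b (-1.60), 1459861_PM_s_at (-2.55), 1447526_PM_at (-1.17), 1441721_PM_at (-1.17) and Bcl11a (0.56).

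Among 348 groups of 4 arrays for 58 named probe sets, 27 (7.76%) held an array whose gap to the nearest, as a share of the group's range, exceeded Dixon's 95% critical value, where chance gives about 1 in 20. In liver these were, in log2 intensity, the WT arrays of 1441721_PM_at at 4.02, Bcl11a at 3.39 and Etfdh at 10.25 (all highest) and Usp18 at 3.77 (lowest), and the lowest CAG42 arrays of Pebp1 at 10.86, Etfdh at 9.14 and Cyp2b9 at 9.77. Liver WT replicate 1 was the array in 2 of these, 1441721_PM_at and Etfdh. In CAG42 cerebellum 1447526_PM_at at 5.87, Fbxw8 (1426944_PM_at) at 8.38, Cyp2b9 at 3.05 and Orm2 at 2.93 had a high array and Ndufs1 at 10.18 a low one. In WT cerebellum Fbxw8 (1436732_PM_s_at) had a high array at 7.81 and Cyp7a1 a low one at 2.97.

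In CAG42 brainstem the highest arrays were of Nlrp12 at 3.14, Atf3 at 3.73, Dnajb9 at 9.23, Cyp7b1 at 7.43 and Acaca at 8.05, and the lowest of Hsd3b3 at 2.57, Acat1 at 9.91 and Atxn2 (1419866_PM_s_at) at 9.94. In WT brainstem the highest were of Tapbp at 8.36, Acaca at 8.17 and Fbxw8 (1458413_PM_at) at 3.14, and the lowest of Adam1a at 6.30 and Pabpc1 (1453840_PM_at) at 3.74. Several of these lie far below a level of 6.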

How the results depend on the processing

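The number of probe sets called for brain minus liver was 5 with all arrays. It was 2 with a spread for each tissue alone, 2 with 1 weight per tissue, 54 with array weights, 12 with quantile normalization within tissue, 11 with trend and robust moderation, 7 with a random replicate block, 12, 16 and 20 when only probe sets at a mean of at least 5, 6 and 7 in both organs were tested, 10 when probe sets were averaged per gene, 110 without liver WT replicates 1 and 3 together, and 4 to 452 with 1 array left out. For cerebellum minus liver (4) the counts were 0 with a spread per tissue (1481 at an unadjusted p under 0.05), 2 with weights per tissue, 2, 2 and 0 at levels of 5, 6 and 7, 1 with gene means, 35 without both liver arrays, and 4 to 55 with 1 array left out. For brainstem minus liver (4) they were 2 with a spread per tissue, 13 with array weights, 9 with quantile normalization, 2 and 10 at levels of 5 and 7, 1 with gene means, 55 without both liver arrays, and 3 to 41 with 1 array left out. For brain alone (37) they were 56, 93 and 88 with a spread per tissue, array weights and weights per tissue, 7, 4 and 4 at levels of 5, 6 and 7, 7 with gene means, and 22 to 48 with 1 array left out. For liver alone (66) they were 0, 231 and 11, 117 at a level of 7, 640 without both liver arrays, and 35 to 2878 with 1 array left out. The cause of these differences was not tested.

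With the replicate number as a block, 10 probe sets were called for brain minus liver, 4 of the 5 among them, with Bcl11a lost (adjusted p = 0.0871), 7 for cerebellum minus liver and 3 for brainstem minus liver, and the changes in brain alone and liver alone cannot be estimated. Samples of the same number deviated together with r of 0.0417 to 0.162 between brainstem and liver, 0.0775 to 0.285 between cerebellum and liver and 0.224 to 0.375 between the brain regions, and 8 of 8 correlated best with their own number in each pair. Since the labels do not tie the numbers to mice, this is a hint from the data.

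At a level of 7, 5641 probe sets were high enough in both organs, with 0 called there and 3 in brain only; at a level of 5, 2 were called in brain only and 1 in neither. Of the gene lists, with 0 called, array weights gave 2 for bile acid and cytochrome P450, 1 for mitochondrial translation and 1 for glycine and pyrimidine breakdown, and gene means gave 1 each for ketone bodies and branched-chain amino acids, bile acid and cytochrome P450, and glycine and pyrimidine breakdown. Without liver WT replicate 1 the lists had 2 called for bile acid and cytochrome P450, 2 for interferon-stimulated genes, and 1 each for the circadian clock, glycine and pyrimidine breakdown, ketone bodies and mitochondrial translation. Signs turned for Atxn2 1460653_PM_at (-0.12 with array weights, -0.035 without both liver arrays), 1459363_PM_at (-0.22 and -0.10), and with quantile normalization 1419866_PM_s_at (0.011) and 1438143_PM_s_at (0.041). With 1 array left out these probe sets ranged from -0.18 to 0.32, -0.23 to 0.17, -0.25 to 0.066 and -0.17 to 0.060, Pabpc1 1418883_PM_a_at from -0.025 to 0.044 and Adam1a 1427791_PM_a_at from -0.062 to 0.086.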
